A study of Mus musculus with 6 samples.

Results

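Beside probes for named genes, the mouse array used here carries probes whose only name is an interval of the mm9 genome (NCBI37) and a strand, forward or reverse. On the 19 autosomes there were 15604 such probes, and they stood for 4429 distinct regions of 1 interval and 1 strand each. A region was kept where at least 1 of its probes gave a signal well above background on the arrays labelled heart 1 and heart 3, or on those labelled tail 2 and tail 3. This left 2206 regions (49.8%), which are described here by chromosome, length, strand and level. The members were thus chosen by the background flags of the 4 arrays, a part of the readout, so the number kept and the presence of signal in one or the other pair are descriptions and were not tested.

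The study compared fibroblasts cultured from the heart and from the skinned tail of adult male C57/Bl6-J mice, aged 8 weeks in the sample labels and 8 to 10 weeks in the protocol. Its title asks about genes of heart formation in cardiac fibroblasts. Both tissues were digested with trypsin/EDTA or collagenase type II, and the cells were grown on plastic for 5 days in DMEM with serum. There were 3 cultures per tissue, each pooled from 2 animals, with 1 single-colour (Cy3) array per culture. Which tissue received which enzyme is not stated, and by their labels the groups differed in the tissue of origin only.

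Long intergenic non-coding RNAs (lincRNAs) are transcripts that lie between protein-coding genes, are usually spliced and polyadenylated, and encode no known protein. Many are made at low levels and in few cell types, and some lie beside developmental regulators and act on genes nearby or on chromatin. The authors' deposited table of differing probes lists 38 probes of these autosomal regions, and in 38 of 38 its description gives a lincRNA interval and a strand that match the name on the array, with F for forward and R for reverse. The array gives no symbol for the regions. Genes beside them and their sequences were not analysed here, for want of an annotation of the same genome build.

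**Figure D1:**
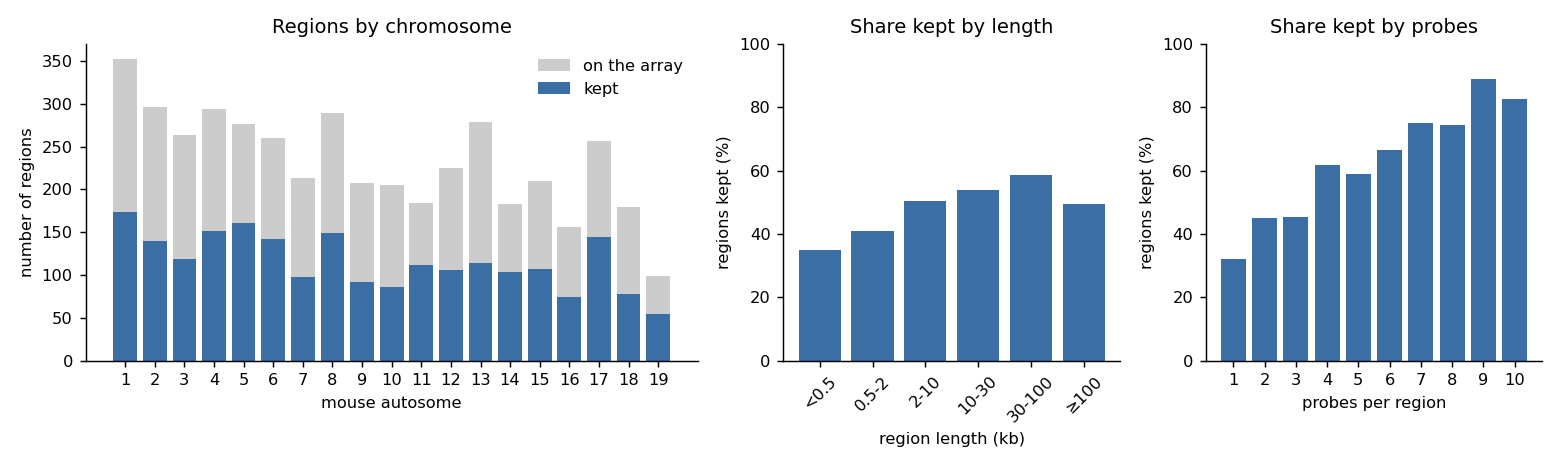
Left, number of regions on the array (grey) and kept (blue) for each mouse autosome. Middle and right, percentage of regions kept by region length in kb and by number of probes per region. Chromosome 1 held the most kept regions (174 of 352), and the share kept was 32.3% with 1 probe and 82.5% with 10.

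The regions spanned 62 bp to 7128487 bp, with a median of 10745 bp, and carried 1 to 10 probes (median 3). Kept regions had a median length of 12492.5 bp against 8542 bp for those not kept, and the longest kept region was 533972 bp. The share kept was 34.9% under 500 bp, 41.0% from 500 bp to 2 kb, 50.4% to 10 kb, 53.9% to 30 kb and 58.5% to 100 kb, and it was 49.4% at 100 kb or more. The median number of probes was 3 in each of these length classes except 30 to 100 kb, where it was 5. Within the regions of exactly 3 probes the same shares by length were 41.9%, 41.6%, 45.1%, 48.3%, 62.5% and 38.3%.

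Chromosome 1 held the most kept regions (174 of 352) and chromosome 19 the fewest (55 of 99). The share kept ran from 40.9% on chromosome 13 to 60.9% on chromosome 11. The strands were alike in number, with 50.9% of 2231 forward and 48.7% of 2198 reverse regions kept. The regions fell on 3387 intervals, of which 1042 were represented on both strands. Regions of the latter were kept in 58.5% of cases, with a median length of 17751 bp and a median of 5 probes, against 42.1%, 2176 bp and 3 probes for intervals on 1 strand.

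Signal was sparser than for named genes. Probe by probe, 26.0% of region probes were kept against 65.1% of probes with a gene symbol, and of the 20676 gene symbols on the array 66.2% were kept by the same rule. All probes passed in 523 kept regions, while 1026 regions were kept by 1 probe of several. Of the kept regions, 1878 (85.1%) were well above background on all 4 of the arrays that the rule used. A further 155 were so on the heart pair and 1 tail array, 79 on the tail pair and 1 heart array, 74 on the heart pair only and 20 on the tail pair only.

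The array labelled heart 2 stood apart from the others. Of all its spots 99.3% were well above background, against 47.3% to 55.2% on the other 5 arrays, and it lost 889 of 15604 region spots as outliers against 0 to 3. Across region probes it correlated with the other arrays at 0.464 to 0.482, while all other pairs lay between 0.908 and 0.967. The highest value, 0.967, joined the arrays labelled heart 1 and tail 1. Tcf21, a transcription factor of the epicardium and of cardiac fibroblasts, was at 5.13 and 5.05 on heart 1 and 3 and at -5.69 and -5.88 on tail 2 and 3, but at -2.46 on heart 2 and 5.21 on tail 1. These levels, like all levels given here, are log2 signals minus the array's 75th percentile. Both arrays thus went against their labels at this gene, and results are given with all 6 arrays and without these 2. The second choice rests on the outcome in the case of tail 1, so that p-values from the 4 remaining arrays are too small by an unknown amount. Among general fibroblast markers (collagens, Pdgfra, Dcn and others), 8 of 8 were measured, and their summed linear level was 1772 to 2402 on the 5 arrays other than heart 2. On the 4 arrays 4 of the 8 were called higher in heart (Lum 2.95, Pdgfra 1.68, Dcn 1.60 and Col3a1 1.28 on the log2 scale) and none lower.

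With all 6 arrays split by label, limma called 0 of 2180 regions at an adjusted p under 0.05, and 0 of all 20273 features tested (0%). At an unadjusted p under 0.05 there were 39 regions (1.79%) and 459 features in all (2.26%), and the smallest adjusted p of a region was 0.725. Leaving out heart 1 gave 66 regions, all higher in heart, against 1.14% of all features, and without any other 1 array the count was 0. None of those 66 was among the regions called on the 4 arrays below. With the replicate number as a block, 6 regions passed, 5 higher and 1 lower, against 0.449% of all features. With weights estimated per array, 470 passed (21.6%), 266 higher and 204 lower, against 29.3% of all features. All 94 regions called below were among them. The weighted fit holds the 4 arrays that gave those calls, so this overlap is largely built in.

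On heart 1 and 3 against tail 2 and 3, with 2 arrays per group, most regions differed little. Of the 1878 regions well above background on all 4 arrays, 94 (5.01%) were called by limma, 45 higher in heart and 49 lower, where the same fit called 11% of all 18549 such features (5.94% higher and 5.09% lower) and 13.4% of those with a gene symbol (7.02% and 6.38%). Of the regions 2.4% were called higher and 2.61% lower. A difference of at least 2-fold was seen in 4.53% of the regions, 13.3% of gene symbols and 10.9% of all features. The median difference was -0.19 on the log2 scale for regions and -0.08 for all features. The median standard errors were close, 0.19 for regions and 0.18 for gene symbols. The smaller share called in regions was not tested, and signal level and probe number differ between the kinds of feature. Of the called regions, 26 were at least 2-fold higher in heart and 27 at least 2-fold lower.

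**Figure D2:**
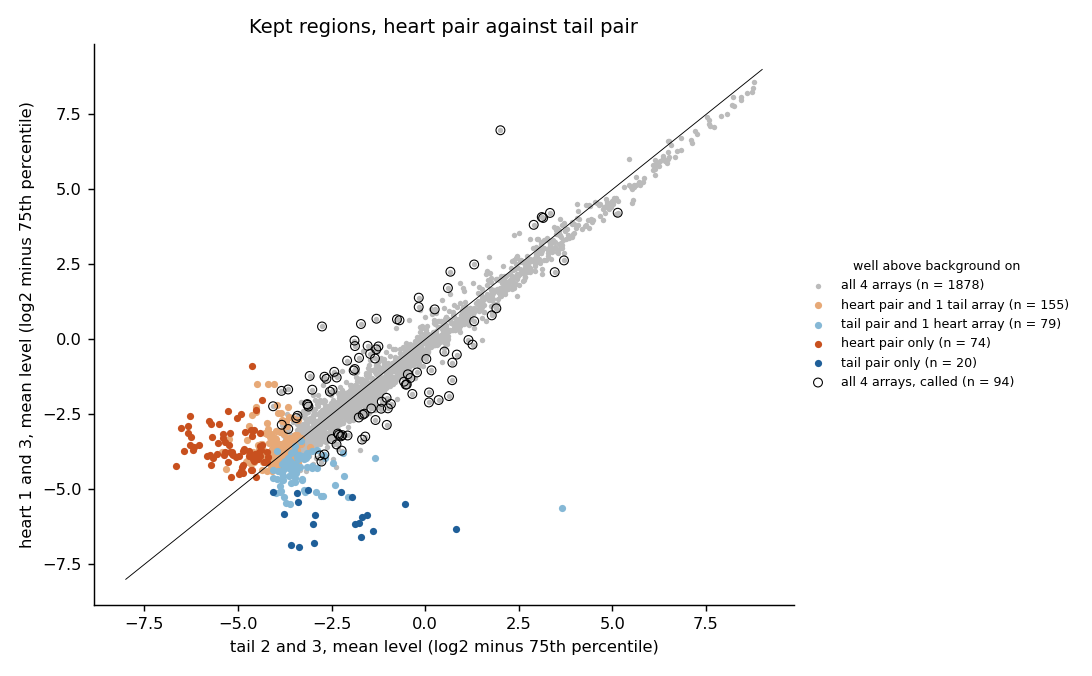
Mean level (log2 signal minus the 75th percentile of the array) of each kept region on tail 2 and 3 (horizontal) and on heart 1 and 3 (vertical), coloured by the arrays on which it was well above background, with called regions ringed and a line of equality. The 1878 regions measured on all 4 arrays lie close to the line, 94 of them called, and the lone light blue point at the right is the forward strand of chr7:91558475-91733625, with 1 heart array not well above background.

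The count moved with the tail arrays, with 17 regions called without tail 2 and 10 without tail 3, against 132 without heart 1 and 113 without heart 3. Over all features the same fits called 3.85%, 3.55%, 13.9% and 12.9%, against 11% with 4 arrays. With no filter on dim features, which brings every probe name on the array into the fit, it fell to 3, beside 1.96% of all features, and 19 of the called regions chosen by rule for description lost their call.

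The largest difference among the called regions was on the reverse strand of chr13:21856097-21859200, a region of 3104 bp with 1 probe. Its level was 6.58 on heart 1 and 7.37 on heart 3, 2.07 on tail 2 and 1.95 on tail 3. Both heart arrays thus lay far above both tail arrays, and the array labelled tail 1 was high as well, at 7.63, while heart 2 was low, at 0.63. The log2 difference was 4.97 (SE 0.30, limma adjusted p = 0.0018), a 31.3-fold higher signal in heart. By label, the difference over 6 arrays was 0.98. It remained called without any 1 of the 4 arrays, with all scalings and blocks tried, and with no filter.

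Next came the reverse strand of chr1:85036677-85038530 (1854 bp), at 0.05 and 0.81 in heart and -2.56 and -2.96 in tail. Heart and tail values did not overlap, as the rule for naming required. Tail 1, at 0.68, lay between the heart values. The log2 difference was 3.19 (SE 0.32, adjusted p = 0.0063), and its other probe gave 3.09. A longer region that contains it on the same strand differed by -0.27 and was not called. The reverse strand of chr19:5834117-5835940 (1824 bp, 3 probes) was at -0.10 and 1.13 in heart and -1.61 and -1.82 in tail. The heart values were spread more widely than those of tail. The log2 difference was 2.23 (SE 0.44, adjusted p = 0.039), with 2.23 to 2.31 over its probes.

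The forward strand of chr9:121256738-121257487, a short region of 750 bp, was at -1.69 and -1.74 in heart and -4.06 and -3.62 in tail. Its log2 difference was 2.12 (SE 0.20, adjusted p = 0.0057). On the forward strand of chr12:111824094-111838478 (14385 bp), heart was at 0.50 and 0.88 and tail at -1.17 and -1.44, a log2 difference of 1.99 (SE 0.21, adjusted p = 0.0073) at the 1 probe kept of 5. In both regions tail 1 was higher than either heart array. The other called regions among the largest 8 were the reverse strands of chr18:5119300-5181600 (1.99, SE 0.39), chr4:123361002-123364781 (1.87, SE 0.30) and chr1:93744621-93825321 (1.85, SE 0.20), from 3780 bp to 80701 bp long. Calls at chr18:5119300-5181600, chr19:5834117-5835940 and chr4:123361002-123364781 were lost without tail 2 or without tail 3, with adjusted p from 0.086 to 0.14. The call at chr1:93744621-93825321 was lost without tail 3 (adjusted p = 0.056). A longer region that contains chr9:121256738-121257487 on the same strand differed by -0.15. Shorter regions inside chr1:93744621-93825321 and chr18:5119300-5181600 on the same strand had fitted differences of -0.11 and 1.49.

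Among regions lower in heart, the reverse strand of chr1:183832694-183834125 (1432 bp) stood first. Its level was -1.87 on heart 1 and -1.91 on heart 3, and 0.61 and 0.66 on tail 2 and 3. The 2 arrays of each pair lay close together and the pairs far apart. The log2 difference was -2.52 (SE 0.14, adjusted p = 0.0016), and the 3 probes, all kept, gave -2.73 to -2.52. Tail 1 was at -1.78, beside heart, and heart 2 at -0.73, between the pairs.

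The forward strand of chr17:8718223-8949898, a long region of 231676 bp, was at -1.97 and -2.08 in heart and 0.23 and 0.49 in tail, a log2 difference of -2.38 (SE 0.17, adjusted p = 0.0027). It rests on 1 probe of 3. The forward strand of chr5:92556322-92558910 (2589 bp) was at -1.29 and -1.43 in heart and 0.53 and 0.91 in tail, a log2 difference of -2.08 (SE 0.20, adjusted p = 0.0055), with -2.20 to -1.57 over 3 probes. The authors' deposited table lists 1 of its probes at -1.86. The reverse strand of chr1:88405875-88418150 was at -1.67 and -1.87 in heart and 0.28 and -0.07 in tail, but its 2 kept probes differed, at -1.87 and -0.14. The forward strand of chr3:127170996-127201096 differed by -1.82 at its brightest probe and 0.15 at the other, and its call was lost without heart 1, heart 3 or tail 2 and with the mean of the probes (adjusted p 0.07 to 0.10). The forward strands of chr8:108120629-108123201 (-1.65) and chr4:11893711-11921443 (-1.64) completed the largest 8 with chr9:78104935-78116974 (-2.20). These 3 calls were lost without tail 3 alone, apart from the fit with no filter, at adjusted p 0.071, 0.054 and 0.063.

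**Figure D3:**
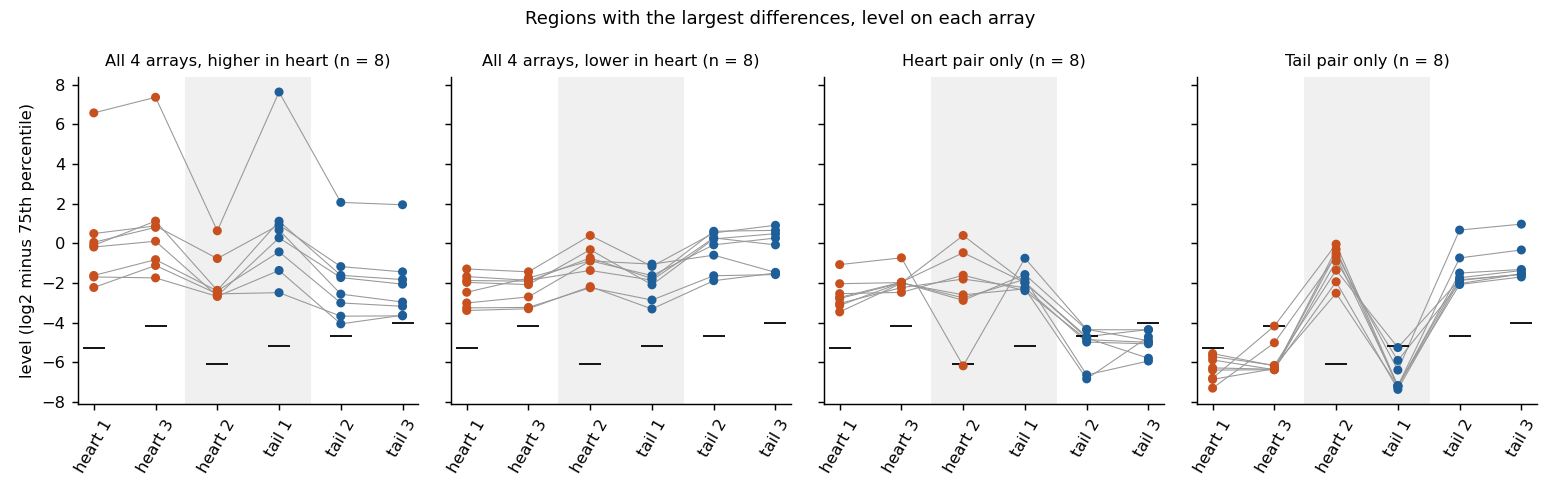
Level (log2 signal minus the 75th percentile of the array) on each array for the 8 regions with the largest differences in each of 4 classes, with 1 line per region, heart in orange and tail in blue. The arrays labelled heart 2 and tail 1 are shaded, black bars mark the lowest level of any probe well above background on that array. In the tail-only panel tail 1 lies low with heart 1 and 3.

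In the class measured on the heart pair only, neither tail 2 nor tail 3 gave a signal well above background, and a fold could be given only as a lower bound. For each tail array the floor was the lowest level of any probe well above background there, or the probe's own level if higher, and the mean of the heart pair was compared with the mean of these floors. Tail-only regions were treated likewise with the pairs exchanged. The rule fixes the direction of these bounds, so no p is given. Among the 74 regions the bounds had a median of 1.50-fold, 23 reached 2-fold, and for 7 it was under 1 so that no fold is given.

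The highest bound in that class was on the reverse strand of chr1:173353316-173367449 (14134 bp, 1 probe). It was at -1.07 and -0.73 on heart 1 and 3 and at -4.33 and -4.91 on tail 2 and 3, at least 9.71-fold higher in heart. On heart 2 it was at -6.17, as low as tail, and on tail 1 at -0.75, as high as heart. The reverse strand of chr1:137503023-137625604, 122582 bp long, was at -2.03 and -1.98 in heart and -4.35 and -4.36 in tail, at least 4.55-fold higher, and its 3 probes were all kept. A longer region on the same strand that contains it and shares its end did not show this difference. That region was well above background on all 4 arrays, differed by -0.04 and was not called. On chromosome 6, the forward regions chr6:40699474-40719122 and chr6:40693617-40720167 overlap, with bounds of 4.01- and 3.89-fold. The short forward region chr15:74474704-74474770 spans 67 bp with 1 probe, and was at -3.13 and -1.98 in heart and -6.63 and -5.93 in tail, at least 3.46-fold higher.

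The 20 regions measured on the tail pair only had higher bounds, with a median of 4.25-fold and a range of 1.50- to 46.8-fold, and 18 of them reached 2-fold. The forward strand of chr9:78107225-78118850 (11626 bp) was at -6.28 and -6.35 on heart 1 and 3 and at 0.67 and 0.97 on tail 2 and 3. The heart arrays lay below the lowest level well above background there, and the tail arrays above their own 75th percentile. It was at least 46.8-fold higher in tail at the brighter of its 2 kept probes, and its other 3 probes were not well above background on any of these 4 arrays. A second region that overlaps it on the same strand, chr9:78104935-78116974, was well above background on all 4 arrays at its 1 probe, at -2.46 and -1.74 in heart and -0.07 and 0.27 in tail, with the called difference of -2.20 given above.

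A few loci with tail-only regions were chosen for description after their values were seen. Within chr5:14921737-15223375 the array has 11 regions, of which 6 were kept, all on the forward strand. The regions chr5:15033568-15033987, chr5:15146475-15170100 and chr5:14943275-14944205 belonged to the tail-only class, at least 18.3-, 7.70- and 7.17-fold higher in tail. A longer region that spans the first and the last of these, chr5:14923900-15062725, differed by -1.13 and was called (adjusted p = 0.023), and chr5:14988715-14989311 differed by -0.39 and was not (adjusted p = 0.38). The last of the 6, chr5:15176325-15223375, went the other way, at 0.80 and 1.36 in heart and -0.13 and -0.22 in tail (log2 difference 1.26, adjusted p = 0.035).

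On chromosome 12 both strands of 1 interval read lower in heart, by unlike amounts. The reverse strand of chr12:74135916-74142780 (6865 bp) was at -6.39 and -6.37 in heart and -1.50 and -1.32 in tail, at least 9.99-fold higher in tail, with 4 of 5 probes kept. Its forward strand was well above background on all 4 arrays and differed by -0.71 (adjusted p = 0.15). A shorter forward region inside it, chr12:74140325-74142695, was tail-only and at least 8.16-fold higher in tail. The other bounds among the largest 8 were 9.03-fold at the reverse strand of chr12:82457625-82476325 and 8.06-fold at the forward strand of chr11:96175764-96176029.

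The highest bound of any kept region, also seen after the fact, lay outside both one-pair classes. The forward strand of chr7:91558475-91733625 spans 175151 bp with 6 probes, 5 of them kept, and was well above background on tail 2 and 3 and on 1 of the 2 heart arrays. Its level was -4.88 and -6.33 on heart 1 and 3, 3.45 and 3.83 on tail 2 and 3, -5.58 on tail 1 and 1.53 on heart 2. Both tail arrays lay far above their 75th percentile, heart 1 just above the lowest level well above background on its array, and heart 3 below it. With the floor in place of the reading on heart 3, it was at least 288-fold higher in tail. The authors' deposited table lists 4 of these probes, at -8.30 to -6.85. The reverse strand of the same interval was at -2.30 and -2.01 in heart and -1.83 and -2.01 in tail and was not called (difference -0.23, adjusted p = 0.45).

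Where several probes lay in 1 region, they could be set side by side as separate readings of it, though they share the sample and may lie in different exons. Of 967 kept regions with at least 2 kept probes, 597 (61.7%) had all differences of 1 sign. In the called regions this was 31 of 36 higher and 27 of 31 lower in heart, where the brightest probe had chosen the region. With each probe fitted on its own, a setting added after the data were seen, 160 of 3251 region probes were called (4.92%) against 10.3% of all probes, in 114 regions. No region had called probes in both directions. The gap between the highest and lowest probe difference within a region had a median of 0.28 and a 90th percentile of 0.83 on the log2 scale, and reached 2.73.

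**Figure D4:**
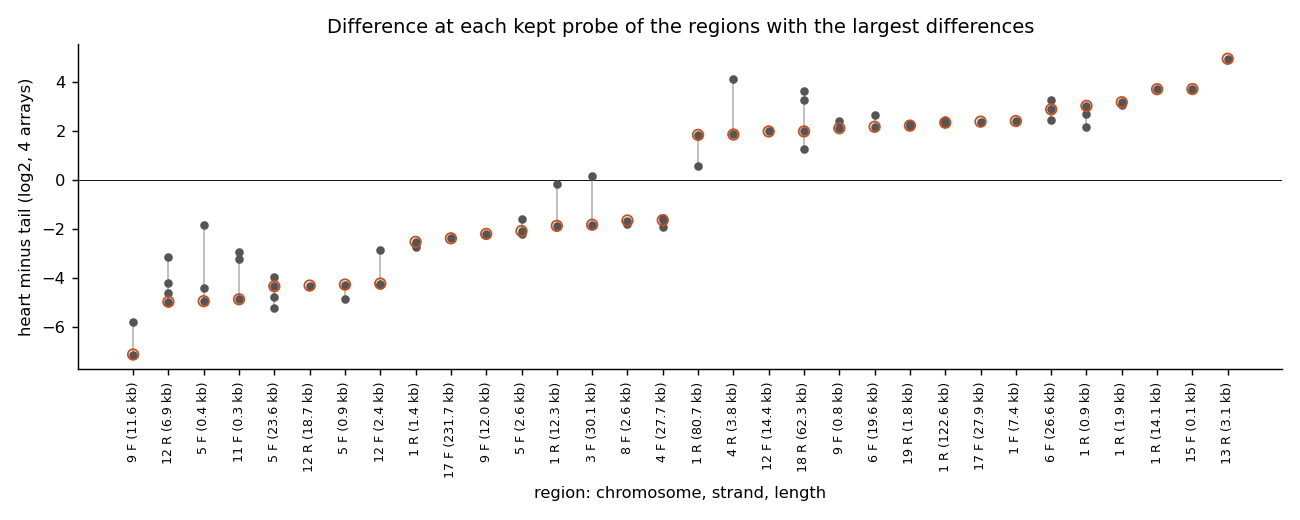
Log2 difference, heart 1 and 3 minus tail 2 and 3, at each kept probe (points) of the regions with the largest differences, 1 column per region named by chromosome, strand and length, with the brightest probe ringed in orange; in one-pair regions the dimmer pair was not well above background at that probe, so these are fitted readings. Of the 32 regions 23 had at least 2 kept probes, and in 22 of these all probes lay on 1 side of 0.

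The authors' deposited table lists 34 of the regions, 26 higher in heart through 27 probes and 8 lower through 11. Of the listed regions, 31 were kept. All 38 probes had the listed sign on the 4 arrays, and tail 1 was left out for going against such values, so this is no independent check. Of the 27 probes listed as higher in heart, 20 were well above background on heart 1 and 3 and 2 on tail 2 and 3. Of the 11 listed as lower, 9 were so on tail 2 and 3 and 2 on heart 1 and 3.

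The listed probe was often not the brightest of its region. This was so in 22 of the 31 listed and kept regions, and in 11 of these the brightest kept probe differed by under 2-fold. On the reverse strand of chr8:26343277-26352902, the listed probe was at -3.19 and -3.09 in heart and -6.52 and -5.92 in tail, where it was not well above background, so that it was at least 2.31-fold higher in heart. The authors' deposited table gives a log2 ratio of 3.16 for it. The brightest kept probe of the same region differed by 0.02 on the log2 scale. For a region of several probes the difference therefore depended on which probe stood for it, and 9 of the listed regions were called at the brightest probe on all 4 arrays.

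**Figure D5:**
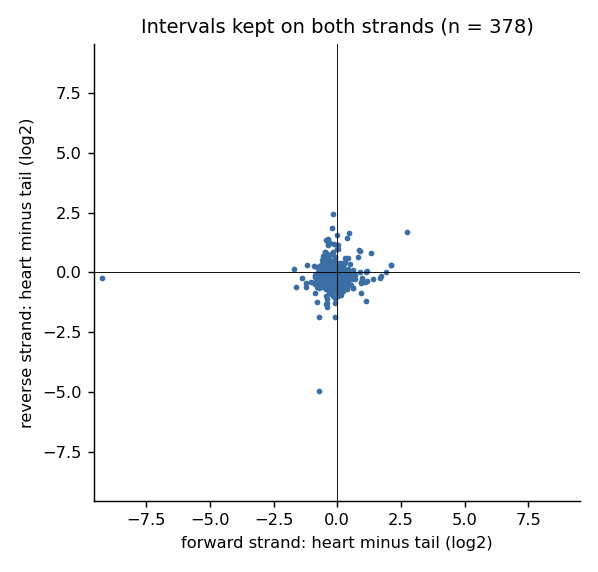
Log2 difference, heart 1 and 3 minus tail 2 and 3, of the forward strand (horizontal) against the reverse strand (vertical) for the 378 intervals kept on both strands, with lines at 0. The point at the far left (-9.25, -0.23) and the lowest point (-0.71, -4.98) each have a strand with heart readings not well above background, so their distance from 0 on that axis is a fitted reading and not a measured fold.

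The strands of an interval showed little common movement. Of the 1042 intervals represented on both strands, 378 were kept on both, 241 on the forward strand only, 222 on the reverse strand only and 201 on neither. In the 378, the differences of the strands had the same sign in 218 and a Pearson correlation of 0.103 across intervals, which share arrays and are not independent. In 44 intervals 1 strand differed at least 2-fold and the other did not, and in 2 both did, once with the same sign and once with opposite signs. These counts, like those of neighbours below, use fitted differences, which for regions dim in 1 pair are set against readings not well above background.

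The interval of opposite signs was chr2:108456668-108532418. Its forward strand was at -0.68 and 0.07 in heart and -1.29 and -1.54 in tail (difference 1.11, SE 0.30, adjusted p = 0.086), and its reverse strand at -1.10 and -0.39 in heart and 0.60 and 0.30 in tail (difference -1.20, SE 0.29, adjusted p = 0.069). Neither passed the test.

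Of the 378 intervals kept on both strands, 24 had a call on 1 strand only. On 3 both strands were called, each time with the same sign. At chr16:43623581-43642715 the differences were 0.88 and 0.89 with 10 and 9 kept probes, at chr6:131263850-131314850 they were -0.86 and -0.85, and at chr9:96664617-96683617 they were -0.81 and -1.24. Chromosome 16 also had the largest share of called regions, 7 higher and 1 lower in heart of 66 on all 4 arrays (12.1%), followed by chromosome 8 with 3 higher and 8 lower of 122 (9.02%). The same fit called 5.01% of such regions on all autosomes and 11% of all features. Both strands of chr16:43623581-43642715 are among the 7. These shares are small counts and were not tested against other chromosomes.

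Neighbouring regions on the same strand often overlap and then can read 1 transcript. Of 341 overlapping pairs of consecutive kept regions, 217 had the same sign, and of the 14 in which both differed at least 2-fold 13 did. The exception lay on chromosome 11, with 1.16 (SE 0.32, adjusted p = 0.090) at the reverse strand of chr11:16831925-16851121 and -1.04 (SE 1.12, adjusted p = 0.58) at that of chr11:16838587-16850933, and neither passed the test. Up to 100 kb apart, with the 341 overlapping pairs included, there were 638 pairs, 397 of the same sign. Of the 17 with both at least 2-fold 15 had the same sign, but 14 of the 17 were the overlapping pairs above.

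The 6 regions with the highest mean level were at 7.84 to 8.70 on heart 1 and 3 and 8.32 to 8.88 on tail 2 and 3, and no spot was saturated. None was called, with differences of -0.47 to -0.18 (adjusted p 0.19 to 0.54). The brightest on each strand were the reverse strand of chr11:22681800-22707775 (-0.18) and the forward strand of chr14:78924115-78938125 (-0.37).

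At the threshold of the rule, the last regions kept were forward strands of chr8:13200727-13207714, chr17:56687541-56694616 and chr3:37612203-37612619, at -5.17 to -5.05 on heart 1 and -4.13 to -3.86 on heart 3. The brightest not kept was the forward strand of chr15:96984422-97000322, with a mean of -3.54, which was well above background on heart 1 and tail 2 but on neither heart 3 nor tail 3.

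HOTAIR, a long non-coding RNA of the HoxC cluster, is named on the array and so is no member. Its probe was at -7.30 and -6.17 on heart 1 and 3 and -3.07 and -3.13 on tail 2 and 3, and -7.09 on tail 1. On heart 1, heart 3 and tail 1 it read below the lowest level well above background there (-5.28, -4.17 and -5.19). Heart 2 gave no value. The authors' deposited table gives HOTAIR -3.16 and places it at chr15:102774492-102778161 on the reverse strand. The nearest kept region, the forward strand of chr15:102920547-102933472, lay 142 kb away and differed by -0.58.

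In level, tail 1 was closer to heart than to tail in 44 of the 45 regions called higher in heart and in 47 of the 49 called lower. Over all 1878 regions on the 4 arrays this was so in 1296. It was so in 20 of the 20 tail-only and in 49 of the 74 heart-only regions. Tail 1 was left out for going against such values, so its place here is no independent check. Heart 2 was nearer to tail in 28 of the 45 and nearer to heart in 14, with 3 not measured. In the 49 these counts were 25 and 23, with 1 not measured. Over the 1878 regions heart 2 was nearer to tail in 825 and to heart in 963, with 90 not measured. Its median signal over all spots was 949, against 24.3 to 37.8 on the other arrays. Nearness in level therefore says little for heart 2, and its place in the one-pair classes is not given. The sign by label over 6 arrays was positive in 36 of the 45 regions and negative in 44 of the 49. The 6 arrays include the 4 that chose these regions, so this likeness of sign is largely built in.

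Marker genes of position and of other cells moved with the same contrast. On the 4 arrays all 4 of the epicardial list (Tcf21, Wt1, Tbx20, Gata4) read higher in heart, and all 4 posterior Hox genes lower. None of the epicardial genes was well above background on tail 2 or 3. Of the Hox genes only Hoxc13 was so in heart, on heart 1. The filter thus fixed these directions, at Hoxc13 in part, and they are no test. The summed linear levels of the 2 lists were 56.0 to 60.7 in heart against 0.049 to 0.064 in tail, and 0.084 to 0.093 against 99.2 to 108.9. Apart from Hoxc13 on heart 1, the lower sums rest on readings not well above background. Of the leukocyte list 5 of 7 tested were higher, with sums of 38.2 and 74.5 in heart and 32.9 and 20.7 in tail. Of 8 endothelial markers 6 were higher, but the sums overlapped, at 15.3 and 21.1 against 22.0 and 16.5. Of the skeletal muscle list 3 of 4 tested were lower, with sums of 13.8 and 10.99 against 39.4 and 34.5, and Ckm was not well above background on any array but heart 2. Of the fat cell list 2 of 4 were lower, and of the heart muscle list 1 of 4 was higher and 1 lower. Among these calls, Tie1, Cldn5 and Robo4 were not well above background on tail 2 or 3. Myog, Myh3, Plin1, Car3 and Actc1 were not so on heart 1 or 3. The filter fixed the direction at these genes too. Neither of the 2 tested keratinocyte markers was called, and Cdh1 was not well above background on the 5 arrays other than heart 2. The part of other cells in the differences of the regions was not tested, and fewer cells of a type and less RNA per cell cannot be told apart in such cultures.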

How the data were processed

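Spot intensities were deposited as scanner output of Agilent Feature Extraction 11.0.1.1, per the file headers, with background subtracted and trends within each array corrected. Flags of other kinds, deposited as 0 or 1 per spot, mark signal well above background, saturation and outliers. The authors' deposited table gives log2 and linear fold ratios of heart over tail, with no statement of how its probes were chosen.

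Levels are log2 processed signal minus the 75th percentile of the array over 59305 non-control spots. Outlier spots were left out, spots of a probe averaged, and a region or gene was represented by its kept probe of highest mean. Symbols came from RefSeq accessions in a later mouse assembly, none of whose coordinates were used. Features well above background on all arrays of 1 group were fitted with limma 3.58.1 (lmFit, eBayes) in R 4.3.3, with Benjamini-Hochberg adjusted p over the whole array. The procedure was tested on simulated data. Python 3.11.15, pandas 2.3.3 and matplotlib 3.10.9 were also used. Depth is limited by the number of arrays, and p-values measure the spread between these pooled cultures.

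The members, lists and rules were chosen with earlier results of these data known. Regions named are the 8 largest called differences with pairs that do not overlap and the 8 largest bounds in each direction, the 6 brightest, those in the deposited table, the 4 brightest intervals on both strands and those at the threshold; others were chosen after their values were seen. Calls were counted only for regions on all 4 arrays. Alternatives were other scalings, normexp (offset 50) on median spot signals, filters, probe summaries, blocks, weights, variance settings and leaving out each array.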

Additional observations from a re-analysis of the deposited data

How the results depend on the processing

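On the 4 arrays, the count of 94 regions was 86 to 100 with quantile normalization, median scaling and normexp, 102 with a filter on all arrays, 92 with the mean of the probes, 88 with slide row as a block, 89 with an intensity trend and robust estimation, and 114 with each probe on its own (added after the data were seen). It was 3 with no filter on dim features, for which the cause was not tested, and 10 to 132 when 1 array was left out. No named region changed sign with a call. The sizes were less steady than the counts. With normexp the difference was smaller at every called region chosen by rule but chr13:21856097-21859200, which stayed at 4.97. It was 1.09 in place of 2.12 at chr9:121256738-121257487, and -0.91 in place of -1.65 at chr8:108120629-108123201. Only replicate number 3 is shared by the pairs, so no fit with the replicate number was made there.

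By label, 0 regions were called under all settings but 3. These were array weights, the replicate block and leaving out an array. Array weights gave 470 (21.6% of regions and 29.3% of all features), in a fit that did not fully converge. The replicate block gave 6 (0.275% of regions and 0.449% of all features), and leaving out an array gave 0 to 66. The replicate numbers were not taken to pair the samples. Deviations of same-numbered cultures from their labelled group means correlated at 0.19, 0.26 and -0.32. Those means include heart 2 and tail 1, which went against their labels, so the correlations can neither show nor exclude pairing. Median scaling moved the labelled median of all features from -0.35 to -1.31 and that of regions from -0.04 to -0.94.

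The number of regions kept was 523 if every probe had to pass, 3458 with the weaker flag for a positive and significant signal, and 2401 to 2791 when 1 array was left out. Dim regions are the limit, since one-pair regions give bounds only.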

Other observations

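The boundaries of many regions fell on round steps. Start and end were both multiples of 25 in 604 of the 4429 regions (13.6%), in 22.6% of those on intervals with both strands and in 5.71% of those on 1 strand. Among the regions on both strands, those with such boundaries were kept in 56.6% of cases and the others in 59.0%. The sources used here do not say how the intervals were drawn.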
